A study of Mus musculus with 2 samples.

Results

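The nuclear-encoded oxidative phosphorylation genes are the chromosomal genes for subunits of the 4 respiratory complexes and of ATP synthase. They were taken as the protein-coding rows whose symbols begin with Nduf followed by a, b, c, s or v and a digit (complex I), with Uqcr (complex III), with Cox4 to Cox8 (complex IV) or with Atp5 (complex V), or are Sdha to Sdhd (complex II). The rule took 83 of the 22040 protein-coding genes and of the 53465 genes in all, of which 37 belong to complex I, 4 to complex II, 8 to complex III, 18 to complex IV and 16 to complex V. The rule used names alone and no measured value, but it was set with earlier results of these data known.

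The series measured RNA of isolated endothelial cells, the cells that line blood vessels, from C57Bl/6 mice carrying tie2-cre, within a study of intravenous NeuroD1 gene therapy after ischemic stroke. There were 2 groups of 1 library each, labelled GFP (a fluorescent protein, taken here as the control) and NeuroD1 (a transcription factor of neuronal differentiation), and both carried the same Cre transgene. The Tie2 promoter that drives Cre is active in endothelial cells and also in some blood cells. Cells of 3 mice were collected and 10000 cells were lysed, but the labels do not say whether each library pooled its own 3 mice. Organ, vector, dose, time after treatment, age and stroke status of the animals are not in the labels. Each group is a single library, so differences cannot be set against a spread between replicates and none carries a p-value.

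Oxidative phosphorylation passes electrons from NADH through complex I, or from succinate through complex II, to ubiquinone, then through complex III and cytochrome c to complex IV, where oxygen is reduced. Complexes I, III and IV pump protons out of the mitochondrial matrix, and complex V lets them back to make ATP. A few subunits are encoded in mitochondrial DNA and the others in the nucleus. Endothelial cells draw much of their ATP from glycolysis, while brain endothelium is known for a comparatively high mitochondrial content.

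The GFP library held 2061634 recovered reads and the NeuroD1 library 2046263. Of these, 51.0% and 56.2% fell in 19 genes above 1000 FPKM (reads scaled by exon length and by a factor for each library). Of the reads in the remaining genes, 1009303 and 896801, the oxidative phosphorylation genes took 3563 and 3620, or 0.353% and 0.404%. At equal exon length 1 read stood for 1.13 times as much FPKM in the NeuroD1 library as in the GFP library. The recovered reads, which were nearly equal, do not account for this factor, and what set it was not tested. Differences and ratios of FPKM as deposited include it. A median member had 15 and 16 reads. Neurod1 itself was at 0.664 FPKM (4 reads) with GFP and at 182 FPKM (970 reads) with NeuroD1. Of the markers of the labelled cell type, 12 of 12 were present, with a median of 12.5 FPKM with GFP and 13.1 with NeuroD1. Olfactory, vomeronasal, taste and trace amine receptor genes, called chemoreceptor genes here, which are best known from sensory neurons and taste cells, had a median of 1.54 and 1.40 FPKM and a 95th percentile of 4.38 and 4.79 FPKM over 1515 genes, and this range is used below as a background for low values.

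Most of these genes were read at low levels. Their median FPKM was 4.57 for GFP and 4.16 for NeuroD1, while the whole protein-coding set had medians of 3.10 and 2.98 FPKM. The chemoreceptor 95th percentile was exceeded by 43 of 83 members (51.8%) in the GFP library and by 35 (42.2%) in the NeuroD1 library, against 30.0% and 24.6% of protein-coding genes. In both libraries at once 29 members exceeded it, and 34 did so in neither. In all, 70 of 83 stayed under 10 FPKM in both libraries. Members are also short, with a median exon length of 1550 bases against 3487 for protein-coding genes, so few reads stand behind each FPKM.

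**Figure D1:**
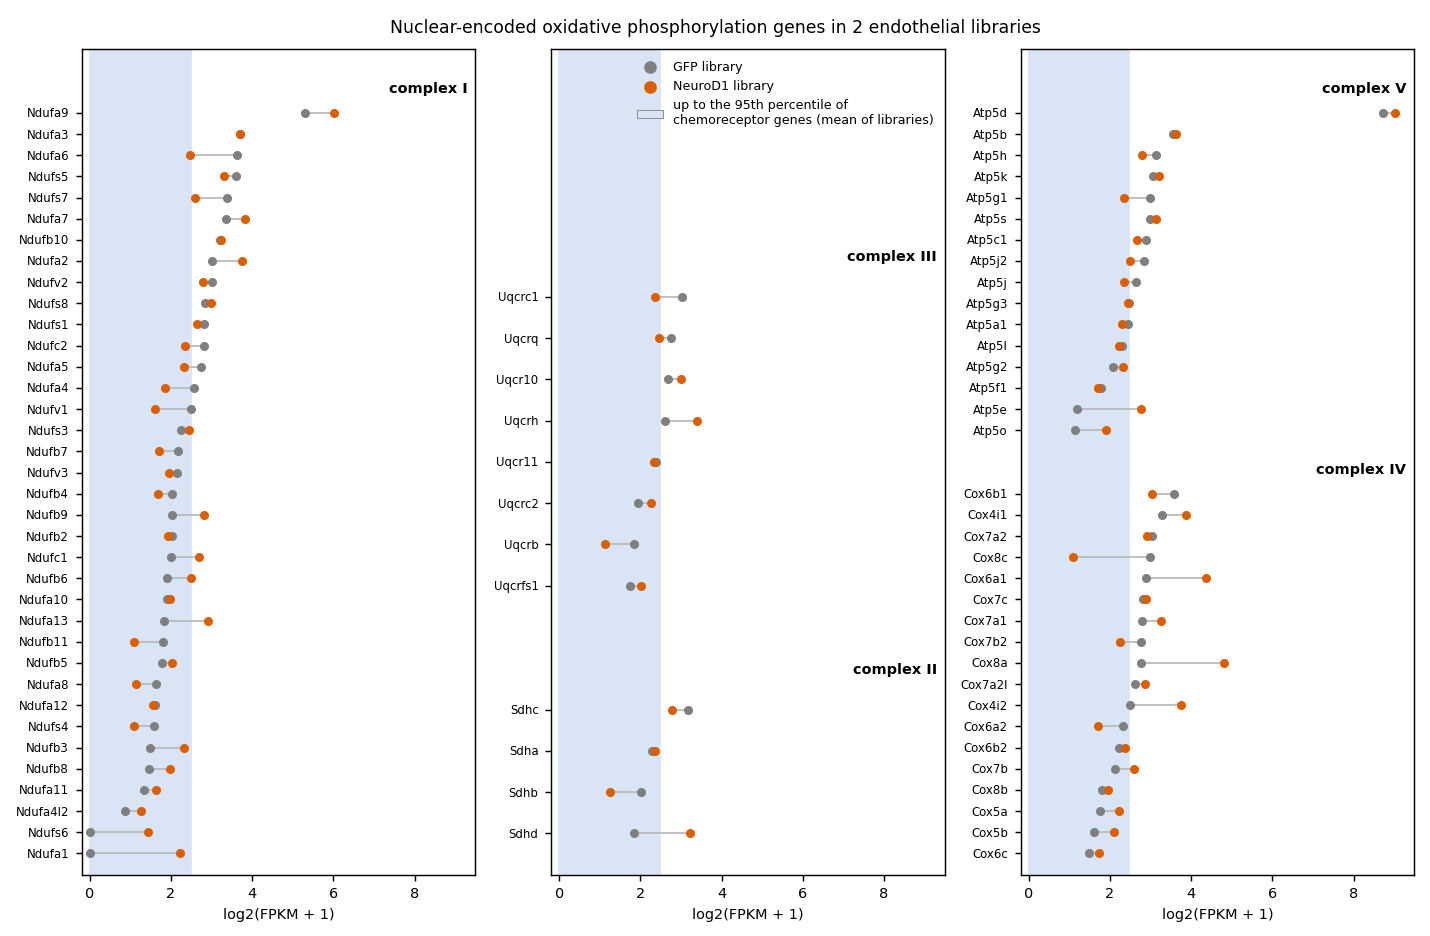
Each row is 1 gene, grouped by respiratory complex with 1 member left out, with its level as log2(FPKM + 1) on the x axis in the GFP library (grey) and the NeuroD1 library (orange), and the pale band reaches up to the 95th percentile of the chemoreceptor genes averaged over the libraries. Atp5d, at 423 and 517 FPKM, and Ndufa9, at 38.1 and 64.2 FPKM, lie far to the right of the other members, and many members have 1 or both points inside the band.

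The comparison asks how the levels of these genes differed between endothelial cells of the NeuroD1 and the GFP group. Over all 83 members the median difference of log2(FPKM + 1), NeuroD1 minus GFP, was 0.07, and 46 lay above 0, but it was -0.13 when the summed FPKM of the libraries were set equal. The median over 20697 protein-coding genes at 1 FPKM or more in a library was -0.02, with 48.3% above 0, and equal sums moved it to -0.20, so the members lay above it under both scalings. The protein-coding genes in the members' own bins of level gave -0.03, and those in their bins of exon length gave -0.02. Ndufa1 and Ndufs6, both accessory subunits of complex I, were listed at 0 in the GFP library and had 3 reads each in the NeuroD1 library, too few for a fold. Without these 2 the median was 0.06, with 44 of 81 above 0.

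A difference of at least 1 on this scale is about 2-fold. Of the 45 members with 5 FPKM or more in a library, 6 (13.3%) were higher by this amount in the NeuroD1 library, beside 3.25% of 6408 protein-coding genes past the same minimum. Another 2 (4.44%) were lower, beside 3.31%. With a pseudocount of 5 in place of 1, or with 5 FPKM required in both libraries, 2 were higher and 0 lower, and with equal sums of FPKM 4 of 42 were higher and 2 lower. Short genes pass this threshold more often in both directions: under 2000 bases of exon, where 54 of the 83 members lie, 10.5% of 1666 protein-coding genes were higher and 9.78% were lower. All 8 members past the threshold are of that length, so the counts read 6 of 34 (17.6%) higher and 2 of 34 (5.88%) lower. The higher members were Cox8a, Cox6a1 and Cox4i2 of complex IV, Atp5e of complex V, Sdhd of complex II and Ndufa13 of complex I. The lower ones were Ndufa6 of complex I and Cox8c of complex IV.

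Whole reads could be recovered for 78 members, which gives an interval for the ratio of FPKM that covers counting error only. Of the 57 members with at least 20 reads over both libraries, 8 (14.0%) had an exact Clopper-Pearson 95% interval above 1, beside 5.92% of 15711 protein-coding genes, and 4 (7.02%) had one below 1, beside 6.30%. Those above were the 6 named as higher plus Ndufa9 and Atp5d, the members with the most reads. Those below were Ndufs7 and Ndufv1 of complex I, Uqcrc1 of complex III and Atp5g1 of complex V. With equal sums of FPKM the balance turned to 5 above and 7 below: the intervals of Atp5d, Cox4i2 and Ndufa13 then included 1, and those of Ndufb7, Ndufs1 and Sdhc fell below it.

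Summed over the members, reads gave a ratio of 1.15 (95% interval 1.10 to 1.21) as deposited, with the factor of 1.13 per read included. With equal sums of FPKM it was 0.977 (0.933 to 1.02). All protein-coding genes together gave 1.135 (1.133 to 1.137) as deposited, which lies inside the members' interval of 1.10 to 1.21. Atp5d alone held 1802 of the 3563 reads in the GFP library and 1944 of the 3620 in the NeuroD1 library. Without Atp5d the ratio was 1.08 (1.01 to 1.15), and without Atp5d and Ndufa9 it was 1.01 (0.940 to 1.09). Protein-coding genes up to 1000 FPKM together also gave 1.01. The last interval, over the 76 other members with recovered reads, thus includes the ratio of the coding genes up to 1000 FPKM.

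Differences moved with level across the whole table. The median of protein-coding genes went from -0.07 at a mean of 1 to 2 FPKM, through -0.03 at 2 to 5, 0.03 at 5 to 10, 0.12 at 10 to 20 and 0.23 at 20 to 50, to 0.32 at 50 to 1000 FPKM. The 6 members at 10 to 20 FPKM were all above 0, with a median of 0.52, beside 65.2% of protein-coding genes in that bin. The 28 members at 5 to 10 FPKM had a median of -0.15, with 13 above 0, beside 53.9% of protein-coding genes. Among members at 5 FPKM or more in both libraries, 19 of 28 (67.9%) were above 0 with a median of 0.11. Over 3650 protein-coding genes past the same minimum, 58.4% were above 0 and the median was 0.05.

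**Figure D2:**
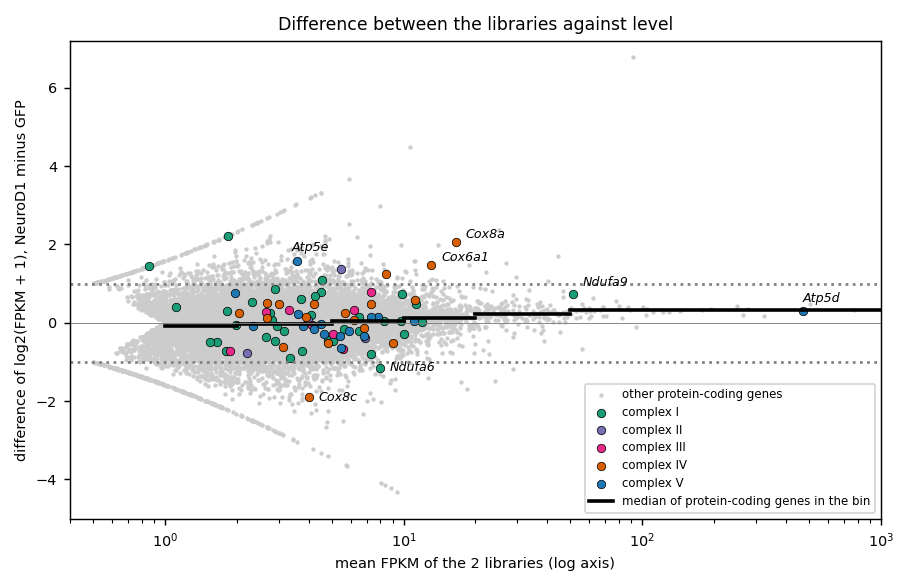
The mean FPKM of the libraries (x axis, log scale) is plotted against the difference of log2(FPKM + 1), NeuroD1 minus GFP, for protein-coding genes up to 1000 FPKM (grey) and for the members coloured by complex, with the threshold of 1 as dotted lines. Black bars are medians of protein-coding genes in bins of level, which climb from -0.07 to 0.32, and Atp5d sits on the bar of its bin while Ndufa9, Cox6a1 and Cox8a lie above theirs.

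Promoters of oxidative phosphorylation genes are known for binding sites of the nuclear respiratory factor NRF1 and of GABP, an ETS family factor. Windows of 300 bases, 250 before and 50 after each gene's start, were taken from RefSeq (GRCm38.p6). They covered 68 of the 83 members with 73 windows. Letters were searched on both strands. The NRF1 letters GCATGCGC stood in 10 of 73 member windows (13.7%) and in 3.64% of 20009 windows of protein-coding symbols (2.71% of all 32851 windows). The ETS letters CCGGAAG stood in 16 (21.9%), beside 11.8% (8.86% of all). The YY1 letters AAGATGGCG stood in 7 (9.59%), beside 1.92% (1.40% of all), and 5 of these 7 windows belong to complex I. The ERR letters TCAAGGTCA stood in 2 (2.74%), beside 0.340% (0.423% of all). The CRE letters TGACGTCA, a palindrome, stood in 4 (5.48%), beside 2.32% (1.79% of all). NRF1 letters overlap their own reverse complement where they form a longer palindrome. ETS and YY1 letters can overlap each other. A match describes letters in a window and is not a bound site.

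Sequence is shown for 4 of the members that stood higher in the NeuroD1 library and for Ndufa6, which stood lower, so that their upstream regions can be set side by side. Each run is 5′ to 3′ on the gene's own strand, all on the minus strand of GRCm38.p6, cut to bases that overlap no annotated exon, with the match in capitals (NRF1 on both strands, overlapping, in Cox6a1; ETS in Atp5e and Sdhd; NRF1 in Ndufa6). The Cox8a run is without capitals because its ETS letters do not lie wholly in the 250 bases before the start. Bases after the start are not shown. The ETS letters of Cox6a1 begin 16 bases before the start, outside its printed run, and are not shown either. The Sdhd window also holds ERR letters, which do not lie wholly in the 250 bases before the start and are not marked.
Cox8a, chr19:7217617-7217866: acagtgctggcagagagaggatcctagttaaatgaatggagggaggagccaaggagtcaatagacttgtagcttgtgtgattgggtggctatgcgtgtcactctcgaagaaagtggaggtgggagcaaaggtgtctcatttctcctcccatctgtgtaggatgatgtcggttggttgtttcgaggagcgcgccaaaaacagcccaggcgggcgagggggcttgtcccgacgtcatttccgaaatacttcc
Cox6a1, chr5:115348982-115349129: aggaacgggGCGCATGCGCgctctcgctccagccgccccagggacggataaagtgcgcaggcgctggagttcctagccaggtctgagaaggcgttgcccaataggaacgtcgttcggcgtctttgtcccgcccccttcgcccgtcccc
Atp5e, chr2:174464106-174464351: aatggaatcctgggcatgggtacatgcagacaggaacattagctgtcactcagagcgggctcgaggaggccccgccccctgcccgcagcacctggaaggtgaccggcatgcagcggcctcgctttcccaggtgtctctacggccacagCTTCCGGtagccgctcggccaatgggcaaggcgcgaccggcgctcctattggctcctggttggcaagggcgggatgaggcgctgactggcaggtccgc
Sdhd, chr9:50603850-50603909: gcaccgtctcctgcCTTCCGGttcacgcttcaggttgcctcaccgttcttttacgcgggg
Ndufa6, chr15:82354323-82354541: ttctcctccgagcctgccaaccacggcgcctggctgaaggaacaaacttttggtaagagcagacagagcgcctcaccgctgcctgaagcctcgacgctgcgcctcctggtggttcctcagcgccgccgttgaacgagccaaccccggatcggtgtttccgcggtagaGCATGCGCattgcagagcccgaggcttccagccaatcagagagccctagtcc
NRF1 letters thus occur in the printed run of Cox6a1, a higher member, and of Ndufa6, a lower one. Of the 7 members higher by threshold or interval that have a window, the 4 printed above hold ETS letters in their windows. Ndufa13, Ndufa9 and Atp5d, which are not printed, do not. Of the 5 lower members with a window, none holds ETS letters, while Uqcrc1 and Ndufa6 hold NRF1 letters. Of all 68 members with a window, 16 hold ETS letters and 10 hold NRF1 letters. The counts among higher and lower members were taken after the values were known and have no test.

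Complex I, NADH dehydrogenase, takes electrons from NADH through a chain of flavin and iron-sulfur centres carried by 7 nuclear core subunits, which are surrounded by accessory subunits. Its 37 genes had a median difference of 0.04, with 20 above 0, and one of -0.17 with equal sums of FPKM. Without the 2 genes listed at 0 in the GFP library the median was 0.01. Of 17 genes at 5 FPKM or more, 1 was higher and 1 lower. Summed reads were 812 and 814, a ratio of 1.14 (1.03 to 1.25), beside 1.135 over all protein-coding genes. With equal sums it was 0.964 (0.874 to 1.06), and as deposited without Ndufa9 it was 0.983 (0.875 to 1.10).

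The core genes were lower in sum in the NeuroD1 library, with an interval that just includes 1. They held 268 reads with GFP and 197 with NeuroD1 over the 6 with recovered reads, a ratio of 0.833 (0.689 to 1.004). This is as deposited, beside 1.135 over all protein-coding genes, and was not taken with equal sums of FPKM. The core genes had a median difference of -0.17, with 3 of 7 above 0. Ndufs7, which carries the last iron-sulfur cluster before ubiquinone (ENSMUSG00000020153, chromosome 10, 80249121 to 80256794, plus strand, all coordinates being GRCm38), had 9.49 FPKM with GFP and 5.07 with NeuroD1, on 36 and 17 reads, a ratio of 0.535 (0.282 to 0.977). Ndufv1, which binds NADH and the flavin (ENSMUSG00000037916, chromosome 19, 4007384 to 4012806, minus strand), stood at 4.67 and 2.03 FPKM on 26 and 10 reads, a ratio of 0.436 (0.187 to 0.934). The GFP library was the higher one for both. As deposited, the other core genes had intervals that include 1 or no recovered reads. Ndufv2, the partner of Ndufv1 in the NADH-oxidising module, stood at 7.05 and 5.93 FPKM (ratio 0.840, 0.468 to 1.49). Ndufs1, the largest iron-sulfur subunit, stood at 6.05 and 5.26 FPKM on 108 and 83 reads (0.870, 0.646 to 1.17). Both leaned to the GFP library by less than counting error. Ndufs3 stood at 3.74 and 4.47 FPKM and Ndufs8 at 6.11 and 6.92 FPKM.

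The 29 accessory subunits held 542 and 614 reads over those with recovered reads, a ratio of 1.28 (1.14 to 1.44) as deposited. All protein-coding genes together gave 1.135. Ndufa9 gave 177 and 263 of the accessory reads, and the ratio was not taken without it or with equal sums of FPKM. The median difference of the accessory subunits was 0.04, with 16 above 0. Ndufa9, a subunit at the junction of the membrane and matrix arms (ENSMUSG00000000399, chromosome 6, 126821721 to 126849136, minus strand), had 38.1 FPKM with GFP and 64.2 with NeuroD1, a ratio of 1.68 (1.39 to 2.05) and a log2 difference of 0.74. No other complex I gene exceeded the 13.3 FPKM that Ndufa7 reached in the NeuroD1 library. Exons of Ndufa9 overlap 67 bases of 1700018A23Rik on the opposite strand, and the part of this overlap in the value was not tested.

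Ndufa13, an accessory subunit also known as GRIM-19 (ENSMUSG00000036199, chromosome 8, 69894180 to 69902558, minus strand), had 2.53 FPKM on 7 reads with GFP and 6.56 FPKM on 16 reads with NeuroD1, a ratio of 2.59 (1.01 to 7.44), with a lower limit of 0.856 under equal sums. Its exons overlap 375 bases of Tssk6 on the opposite strand. Ndufa6, an accessory subunit of the LYR family (ENSMUSG00000022450, chromosome 15, 82350140 to 82354322, minus strand), whose upstream region with NRF1 letters is printed above, had 11.3 FPKM with GFP and 4.58 with NeuroD1, a log2 difference of -1.14. No whole reads could be recovered for it, so it has no interval. Ndufa3 was level, at 11.96 and 12.04 FPKM on 27 and 24 reads. Ndufa7 stood at 9.31 and 13.3 FPKM on 35 and 44 reads, a ratio of 1.42 (0.893 to 2.29). Higher, lower and level genes thus stood side by side among accessory subunits of similar level. Ndufa2 at 7.12 and 12.5 FPKM (9 and 14 reads) and Ndufs5 at 11.1 and 8.94 FPKM (21 and 15 reads) had intervals that include 1, as had Ndufb7 at 3.50 and 2.27 FPKM (35 and 20 reads, ratio 0.647, 0.354 to 1.15). The remaining 18 accessory genes lay between 1.12 FPKM (Ndufs4 with NeuroD1) and 8.43 FPKM (Ndufb10 with NeuroD1), and each had an interval that includes 1 or no recovered reads. Ndufa4, now counted by many as a subunit of complex IV, stood at 4.92 and 2.60 FPKM on 15 and 7 reads. Its hypoxia-linked paralog Ndufa4l2 was read 2 and 3 times, at 0.827 and 1.40 FPKM, within the chemoreceptor range in both libraries.

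Complex II, succinate dehydrogenase, links the citric acid cycle to the respiratory chain and has no mitochondrially encoded subunit. Of its 4 genes, 2 lay above 0 and the median difference was -0.16 (a mean of 0.08), while summed reads were 114 and 96, a ratio of 0.954 (0.719 to 1.26). Sdhd, a membrane anchor subunit (ENSMUSG00000000171, chromosome 9, 50596357 to 50603812, minus strand), had 2.57 FPKM on 7 reads with GFP and 8.33 FPKM on 20 reads with NeuroD1, a ratio of 3.24 (1.31 to 9.06). The other anchor, Sdhc, stood at 7.94 and 5.84 FPKM on 57 and 37 reads, a ratio of 0.735 (0.473 to 1.13). The anchors therefore leaned in opposite directions, and only the interval of Sdhd excluded 1. The flavoprotein Sdha stood at 3.84 and 4.10 FPKM (35 and 33 reads, ratio 1.07, 0.643 to 1.77). The iron-sulfur subunit Sdhb stood at 3.03 and 1.37 FPKM (15 and 6 reads, ratio 0.453, 0.144 to 1.24).

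Complex III, the cytochrome bc1 complex, hands electrons from ubiquinol to cytochrome c. Its 8 genes had a median difference of 0.10, with 4 above 0 (-0.08 with equal sums of FPKM and -0.01 as a mean), and none of the 4 at 5 FPKM or more was higher or lower by 1. Summed reads were 143 and 114, a ratio of 0.903 (0.700 to 1.16), or 0.767 (0.594 to 0.987) with equal sums. The core protein Uqcrc1 (ENSMUSG00000025651, chromosome 9, 108936633 to 108949623, plus strand) had 7.12 FPKM on 65 reads with GFP and 4.09 FPKM on 33 reads with NeuroD1, a ratio of 0.575 (0.366 to 0.887). Its partner Uqcrc2 stood at 2.84 and 3.82 FPKM on 16 and 19 reads, a ratio of 1.35 (0.655 to 2.80). Among the core proteins the interval of Uqcrc1 alone excluded 1. Uqcrh, the hinge protein that helps dock cytochrome c, stood at 5.12 and 9.53 FPKM on 14 and 23 reads, a ratio of 1.86 (0.918 to 3.91). Uqcrq, at 5.69 and 4.48 FPKM, and Uqcr10, at 5.43 and 7.02 FPKM, are small subunits with intervals that include 1. The Rieske iron-sulfur protein Uqcrfs1 was read 7 and 8 times, at 2.32 and 3.01 FPKM. Uqcr11 and Uqcrb were read 6 times or fewer in each library.

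Complex IV, cytochrome c oxidase, reduces oxygen to water, and its nuclear subunits are known for paralogs that differ between tissues. Of its 18 genes, 13 lay above 0, with a median difference of 0.25, the highest of the 5 complexes as deposited. With 5 FPKM required in both libraries complex III stood higher, at 0.55 over 2 genes against 0.36. The median of complex IV stayed above 0 under each alternative run. Summed reads were 194 with GFP and 247 with NeuroD1, a ratio of 1.44 (1.19 to 1.75), beside 1.135 over all protein-coding genes. With equal sums the ratio of complex IV was 1.22 (1.01 to 1.49). Of 12 genes at 5 FPKM or more, 3 were higher and 1 lower, and of 11 with at least 20 reads, 3 intervals lay above 1 and none below. These genes are short, with a median of 866 bases, and the shares over short protein-coding genes were 10.5% higher and 9.78% lower, and by interval over all lengths 5.92% above and 6.30% below. Cox8a and Cox6a1 carry much of the rise in complex IV: without them 11 of 16 genes lay above 0, with a median of 0.19. Reads were then 177 and 191, a ratio of 1.22 (0.991 to 1.51), an interval that includes 1.135.

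The 10 subunits found in most tissues held 135 and 186 reads, a ratio of 1.56 (1.24 to 1.96), with 8 above 0 and a median of 0.47. Cox8a, a small membrane-spanning subunit (ENSMUSG00000035885, chromosome 19, 7215153 to 7217616, minus strand), had 5.81 FPKM on 7 reads with GFP and 27.3 FPKM on 29 reads with NeuroD1, a ratio of 4.69 (2.01 to 12.7). Its reads were recovered from the ratio of the libraries, since its deposited length departed from the annotation used. Cox6a1, a subunit at the dimer interface (ENSMUSG00000041697, chromosome 5, 115345642 to 115348981, minus strand), stood at 6.45 FPKM on 10 reads and 19.7 FPKM on 27 reads, a ratio of 3.06 (1.43 to 7.08). The NeuroD1 library was the higher one for both, and they ranked 32 and 23 of the 83 members in the GFP library but 3 and 4 in the NeuroD1 library. Of the 50-base stretches in Cox6a1 exons, 9.16% also occur in another gene, and none of those in Cox8a do.

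Without this pair the other 8 ubiquitous subunits held 118 and 130 reads, a ratio of 1.25 (0.965 to 1.61). That interval includes the 1.135 of all protein-coding genes. Cox4i1, the regulatory subunit, stood at 8.76 and 13.6 FPKM on 30 and 41 reads, a ratio of 1.55 (0.943 to 2.57). Cox5a stood at 2.37 and 3.66 FPKM, Cox5b at 2.04 and 3.30 FPKM and Cox7b at 3.36 and 5.07 FPKM, with ratios of 1.54, 1.62 and 1.51 on 7 to 15 reads in a library. Cox6b1 was on the other side, at 10.9 and 7.24 FPKM on 17 and 10 reads, a ratio of 0.666 (0.273 to 1.54). Each of these 5 intervals includes 1. Cox7a2 at 7.19 and 6.52 FPKM, Cox7c at 6.00 and 6.35 FPKM and Cox6c with 14 and 16 reads had ratios between 0.906 and 1.29. Cox7a2l, which takes part in joining complexes III and IV into supercomplexes, stood at 5.13 and 6.26 FPKM (ratio 1.22, 0.532 to 2.82).

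The 7 tissue-restricted paralogs held 46 and 47 reads, a ratio of 1.16 (0.754 to 1.78), with a median difference of 0.13 and 4 above 0. Cox4i2, the paralog of Cox4i1 known from lung, vessel wall and hypoxia (ENSMUSG00000009876, chromosome 2, 152754173 to 152765037, plus strand), had 4.60 FPKM on 8 reads with GFP and 12.4 FPKM on 19 reads with NeuroD1, a ratio of 2.69 (1.12 to 7.10), with a lower limit of 0.955 under equal sums. Cox4i2 is also a gene of pericytes, and the part of such cells in its difference was not tested. The summed level of mural markers (pericytes and smooth muscle) was 27.8 FPKM with GFP and 25.7 with NeuroD1, with none of the 8 at 0, and 2 of the 7 measured lay above 0 with a median difference of -0.20. Those differences ran from -1.45 for the pericyte channel gene Kcnj8 (3.38 and 0.604 FPKM) to 0.47 for the smooth muscle actin Acta2 (7.63 and 10.9 FPKM). Cox8c, a testis form (ENSMUSG00000043319, chromosome 12, 102899316 to 102900526, plus strand), had 6.92 FPKM on 7 reads with GFP and 1.12 FPKM on 1 read with NeuroD1, a ratio of 0.162 (0.00359 to 1.26), so counting error alone covers a ratio of 1. The muscle forms Cox6a2, Cox7a1 and Cox8b had 6 and 3, 7 and 9, and 2 and 2 reads. Markers of cardiac and skeletal muscle beside them had a summed level of 28.8 and 23.7 FPKM, none at 0, with 2 of 7 above 0, and their part in these values was not tested. The testis forms Cox6b2 and Cox7b2 had 9 and 9, and 7 and 4 reads. Of the 7 paralogs, Cox4i2 and Cox7a1 (5.92 and 8.63 FPKM) exceeded the chemoreceptor 95th percentile in both libraries.

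**Figure D3:**
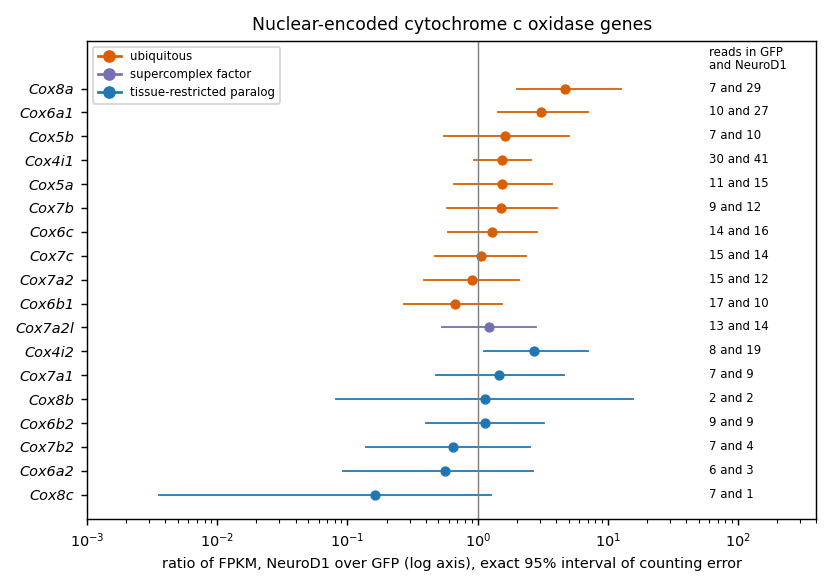
Ratios of FPKM, NeuroD1 over GFP, on a log axis for the 18 nuclear genes of complex IV, with exact 95% intervals of counting error and the reads in each library at the right, coloured by subunit class. The intervals of Cox8a, Cox6a1 and Cox4i2 lie above 1, those of the other 15 genes include 1, and the widest belong to genes with under 10 reads in a library.

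Complex V, ATP synthase, couples proton flow through a ring of c subunits to ATP synthesis in the F1 head. Its 16 genes had a median difference of -0.05, with 7 above 0, while their mean was 0.07 and the median of the 6 at 5 FPKM or more in both libraries was 0.11. Summed reads of 2300 and 2349 gave a ratio of 1.16 (1.09 to 1.23), beside 1.135 over all protein-coding genes. With equal sums it was 0.982 (0.927 to 1.04). Without Atp5d, as deposited, reads of 498 and 405 gave 0.921 (0.806 to 1.05). The median and the sum with Atp5d therefore lay on opposite sides of no difference.

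In the F1 head and central stalk 3 of 5 genes lay above 0, with a median of 0.06. Atp5d, the delta subunit (ENSMUSG00000003072, chromosome 10, 80138632 to 80145818, plus strand), had 423 FPKM on 1802 reads with GFP and 517 FPKM on 1944 reads with NeuroD1, a ratio of 1.22 (1.15 to 1.30), with a lower limit of 0.972 under equal sums. Its log2 difference of 0.29 was close to the median of 0.32 of protein-coding genes of its level. The F1 subunits it joins in the complex stood far below it: the catalytic beta subunit Atp5b at 10.8 and 11.3 FPKM on 101 and 93 reads (ratio 1.04, 0.778 to 1.40), the alpha subunit Atp5a1 at 4.48 and 3.93 FPKM and the gamma subunit Atp5c1 at 6.41 and 5.37 FPKM. Exons of Atp5d overlap 68 bases of Cbarp on the opposite strand, none of its 50-base stretches occurs in another gene, and what sets its level apart was not tested. Atp5e, the epsilon subunit (ENSMUSG00000016252, chromosome 2, 174461072 to 174464105, minus strand), had 1.29 FPKM on 5 reads with GFP and 5.84 FPKM on 20 reads with NeuroD1, a ratio of 4.53 (1.65 to 15.4). Its GFP value lies below the median of the chemoreceptor genes.

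The c ring, whose 3 genes encode the same mature protein with different import sequences, held 109 and 71 reads, a ratio of 0.738 (0.539 to 1.004). This is as deposited, beside 1.135 over all protein-coding genes, and was not taken with equal sums of FPKM. Atp5g1 (ENSMUSG00000006057, chromosome 11, 96068852 to 96075670, minus strand) had 6.91 FPKM on 75 reads with GFP and 4.07 FPKM on 39 reads with NeuroD1, a ratio of 0.589 (0.389 to 0.879). Atp5g2 stood at 3.24 and 3.98 FPKM on 12 and 13 reads, and Atp5g3 at 4.57 and 4.47 FPKM on 22 and 19 reads. Only Atp5g1 had an interval below 1. Shared sequence limits this trio, since 38.3% of the 50-base stretches of Atp5g2 and 10.2% of those of Atp5g1 occur in other genes. The peripheral stalk, which holds the head against rotation, held 83 and 60 reads over Atp5f1, Atp5h and Atp5j, a ratio of 0.819 (0.577 to 1.15). Atp5o, the stalk protein that confers oligomycin sensitivity, stood at 1.202 and 2.72 FPKM with no recovered reads. The membrane subunits Atp5j2, Atp5k and Atp5l held 111 and 86 reads, a ratio of 0.878 (0.654 to 1.17), and each interval in both groups includes 1. Atp5k stood at 7.35 and 8.32 FPKM, Atp5h at 7.73 and 5.95 FPKM and Atp5s, the coupling factor B gene, at 6.88 and 7.80 FPKM, all with intervals that include 1.

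Some member exons overlap an exon of another gene, mostly on the opposite strand, and no source used here says whether counting used strand. The 29 members with such overlap had a median difference of 0.25, with 20 above 0. The 54 without it had a median of -0.04, with 26 above 0. Of the 8 members higher by interval, Ndufa13, Ndufa9 and Atp5d overlap another gene while Cox8a, Cox6a1, Cox4i2, Sdhd and Atp5e do not. The 20 members of which at least 5% of 50-base stretches occur in another gene had a median of 0.01, and the other 63 had one of 0.08. Values of genes with such copies are uncertain, and the part of overlap or copies in the differences was not tested.

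Genes that build or feed the complexes were taken from lists kept apart from the subunits, and differences are again of log2(FPKM + 1). Of 15 assembly factors of complex I, 7 lay above 0, with a median of -0.00057, and Ndufaf8 alone had an interval above 1, at 6.51 and 14.8 FPKM on 12 and 24 reads (ratio 2.27, 1.09 to 4.97). Of 27 measured assembly factors of complexes II to V, 14 lay above 0 with a median of 0.0050, and no interval excluded 1. Of 13 electron carriers and related genes, 5 lay above 0 with a median of -0.09, and cytochrome c itself (Cycs) stood at 7.18 and 6.93 FPKM. The 13 subunits encoded in mitochondrial DNA were all listed at 0 in both libraries, so the nuclear and mitochondrial parts of the complexes could not be compared.

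Citric acid cycle genes lay above 0 in 10 of 16 cases, with a median of 0.07. Among them citrate synthase, Cs, stood at 6.58 and 10.7 FPKM on 84 and 121 reads (ratio 1.63, 1.22 to 2.18), and Suclg2, a subunit of succinyl-CoA ligase, at 2.94 and 0.887 FPKM on 30 and 8 reads (ratio 0.302, 0.120 to 0.674). Glycolysis genes lay above 0 in 6 of 18 cases, with a median of -0.11 and no interval that excluded 1. Pkm, pyruvate kinase, stood at 11.3 and 13.7 FPKM and Ldha, lactate dehydrogenase A, at 9.57 and 10.7 FPKM. Both lists thus held genes on either side of 0.

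The regulators of mitochondrial biogenesis had a median of -0.05, with 6 of 15 above 0 and no interval that excluded 1. Pprc1, a coactivator of the PGC-1 family, stood at 10.3 and 9.96 FPKM, and its relative Ppargc1b at 3.52 and 2.18 FPKM on 31 and 17 reads. Mitochondrial import genes leaned to the GFP library, with 5 of 17 above 0, a median of -0.30 and summed reads of 473 and 338 (ratio 0.809, 0.702 to 0.933). Carriers of ATP and phosphate leaned the other way, with 5 of 7 above 0 and a median of 0.52. Among these, Slc25a31, which is not the only ADP/ATP carrier in the list, stood at 9.999 and 16.6 FPKM on 47 and 69 reads (ratio 1.66, 1.13 to 2.46). The related carriers Slc25a4 and Slc25a5 are in the same list, and neither had an interval that excluded 1. The outer membrane channel Vdac1 stood at 5.70 and 8.61 FPKM (1.51, 0.940 to 2.45). Mitochondrial ribosomal protein genes had a median of -0.03, with 35 of 74 above 0 and a ratio of summed reads of 0.942 (0.884 to 1.003). Cytosolic ribosomal protein genes, likewise known for many pseudogene copies, had a median of 0.21, with 61 of 92 above 0 and a ratio of 1.14 (1.07 to 1.21). The ratio of summed reads over all protein-coding genes was 1.135.

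**Figure D4:**
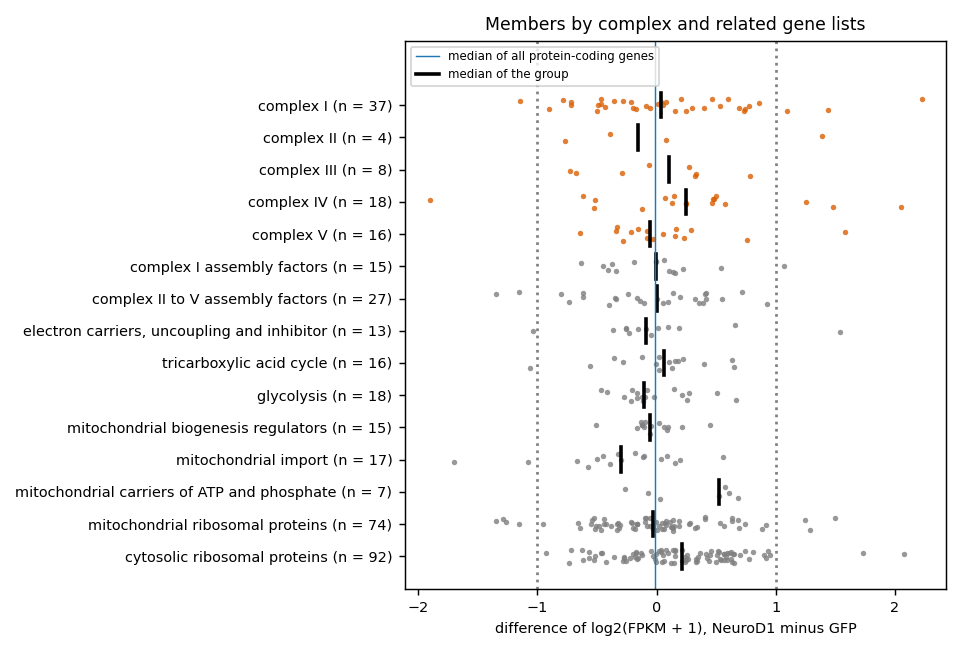
Each point is 1 gene's difference of log2(FPKM + 1), NeuroD1 minus GFP, for the 5 complexes (orange) and the related lists (grey), with black bars for each group's median, a blue line for all protein-coding genes and dotted lines at the threshold of 1. The medians of the complexes run from -0.16 (complex II) to 0.25 (complex IV), and in each of the 5 complexes single genes spread to both sides of 0.

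Marker lists of the cell types the sample could hold were read in the same way. Endothelial markers had a median difference of 0.15, with 8 of 12 above 0, neuronal markers 0.26, with 6 of 10 above 0, and microglial markers -0.18, with 2 of 8 above 0. The medians were -0.11 for astrocyte markers (3 of 7 above 0), 0.08 for oligodendrocyte markers (5 of 7) and -0.40 for erythroid markers (3 of 7). The neuronal list had a median of 2.41 and 2.34 FPKM, with 2 of 10 markers above the chemoreceptor 95th percentile in both libraries, Rbfox3 (26.8 and 31.0 FPKM) and Tubb3 (8.97 and 12.4 FPKM). In bulk RNA fewer cells of a type and less RNA per cell cannot be told apart, and the part of other cell types in the members' values was not tested.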

How the data were processed

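RNA of endothelial cells was measured in 2 libraries, 1 per group. The authors deposited 1 table of FPKM values for 53465 mouse genes, with 1 column per library. Bowtie2 2.3.5.1, featureCounts 1.6.3 and DESeq (no version) with GRCm38 were used, per the submitters' processing notes. Strand, reads mapping to several places and molecular identifiers are not given in the sources used here.

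FPKM multiplied by merged exon length (GENCODE M21) was a whole multiple of 1 step per library, within 0.02 reads, for 51162 genes (95.7%). For 1232 more genes, members such as Cox8a and Ndufv1 included, reads came from the only whole-number pair that fits the ratio of the libraries with a length within 25% of M21. The remaining 1071 have no reads or interval. FPKM were used as deposited, with a step 1.13 times as large in the NeuroD1 library as in the GFP library. Differences are log2(FPKM + 1), NeuroD1 minus GFP, which understates changes of low genes. Calls used a minimum of 5 FPKM in a library and a difference of 1, medians a minimum of 1 FPKM, and intervals a minimum of 20 reads. Intervals are exact Clopper-Pearson 95%, conditional on the summed reads. They cover counting error alone, since reads need not be separate molecules. The steps were tested on simulated data.

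Members, gene lists, subunit roles and naming rule were chosen with earlier results of these data known. The rule named, per complex, the 4 members of highest level and the 4 of largest difference, paralogs with tissue-restricted forms, all members past a threshold, and up to 4 genes per list. The values of 1 member, which is in the counts, medians and sums, are not reported here. Alternatives were other pseudocounts, minimums, scalings and summaries, and members left out. Subtraction of the chemoreceptor median, the mean by complex, reads by M21 length alone and leaving out 2 members were added after seeing the data. Versions were Python 3.11.15, matplotlib 3.10.9, pandas 2.3.3, scipy 1.17.1 and numpy 2.4.6.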

Additional observations from a re-analysis of the deposited data

How the results depend on the processing

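With a pseudocount of 5, or with 5 FPKM required in both libraries, 2 members were higher and 0 lower, and with at least 20 reads required 0 were lower. Requiring 5 FPKM in both libraries moved the median of complex III to 0.55 and of complex V to 0.11. Setting the summed FPKM of the libraries equal, a sum that the genes above 1000 FPKM weigh on, moved the median of all protein-coding genes from -0.02 to -0.20. It moved the members' median to -0.13, complex I to -0.17, complex III to -0.078, complex V to -0.23 and the ratio of summed reads to 0.977 (0.933 to 1.02), with 5 intervals above 1 and 7 below. With the mean in place of the median complex II stood at 0.077, complex III at -0.0061 and complex V at 0.067. Without Atp5d the ratio of summed reads was 1.08, and without Atp5d and Ndufa9 it was 1.01. With the median of its level subtracted Atp5d stood at -0.031 and Ndufa9 at 0.42, and with equal summed FPKM Atp5d stood at 0.05. Reads by M21 length alone gave 7 intervals above 1 and 3 below, of 50. The median of complex IV was above 0 under each setting run. Of 220 values for single genes under alternatives, 11 changed sign (7 with equal sums, 4 with the median of the level subtracted) and 10 crossed the log2 threshold of 1. All but Atp5d under both settings above and Ndufa9 under one moved by less than their counting error or had none. Where nothing above gives a construction, the cause was not tested. No paired analysis was possible because there is 1 library in a group, and for the same reason no replicate could be left out.

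A median of 15 or 16 reads per member limits what can be seen: a member with 7 reads in the GFP library needed 16 in the NeuroD1 library (Ndufa13) for its interval to exclude 1.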

Other observations

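The ribosomal protein genes were counted in the same way. Their median exon length was 1662 bases for cytosolic and 2394 bases for mitochondrial ones, beside 1550 for the members. Of 68 cytosolic genes with 20 reads or more, 6 intervals lay above 1 and 2 below, while of 57 mitochondrial ones 2 lay above and 4 below, beside 5.92% and 6.30% of all protein-coding genes. Rpl32, a protein of the large cytosolic subunit, stood at 2.82 FPKM on 6 reads in the GFP library and 11.7 FPKM on 22 reads in the NeuroD1 library (ratio 4.15, 1.63 to 12.5). Mrpl55, of the large mitochondrial subunit, stood at 6.61 FPKM on 15 reads and 1.997 FPKM on 4 reads (ratio 0.302, 0.0730 to 0.948). The difference between the lists was not tested.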
